A study of Canis lupus familiaris with 28 samples.

Results

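Expression of 8 genes that encode membrane sheddases and the enzymes that mature them, ADAM10, ADAM17, ADAM9, ADAM15, FURIN, PCSK7, BACE1 and BACE2, was described in 28 canine primary oral malignant melanomas (OMMs). The 8 are taken from 16295 genes with a symbol of their own on the array. Each was read at the brightest Transcript cluster (the probes that read a single locus of transcription) that carries its symbol and no other, and each of the 8 had 1 such cluster. ADAM10 and FURIN were selected on their array values, since earlier results of the same table had shown them higher in metastasising tumours, and the others were added by function, so the difference of ADAM10 and FURIN by metastatic status is given as a description, with no test.

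A sheddase cuts the outer domain of a membrane protein from the cell surface, which releases growth factors, cytokines and adhesion molecules and starts the processing of receptors such as Notch. ADAM metalloproteinases are made as inactive precursors whose prodomain is removed in the secretory pathway by proprotein convertases such as furin and PC7. BACE1 and BACE2 are aspartyl proteases that also shed membrane proteins, and in melanocytes BACE2 is known for cutting PMEL, the protein that forms the fibrils of the melanosome.

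RNA came from formalin-fixed, paraffin-embedded biopsies taken at surgery, before any adjuvant treatment, with 1 array per tumour. Metastasising (M) OMMs, 18 in number, came from dogs with proven metastasis that died or were put to sleep because of it, whatever adjuvant treatment they had received. Non-metastasising (NM) OMMs, 10 in number, came from dogs with no detected metastasis that had received no adjuvant therapy and outlived a follow-up limit. The dogs were 8 Golden Retrievers (4 M and 4 NM), 7 of Cross breed (6 M and 1 NM), 5 Labrador Retrievers (3 M and 2 NM) and 8 of 7 other breeds (5 M and 3 NM). A biopsy is a mixture of tumour and other cells, so fewer cells of a type and less RNA per cell cannot be told apart. Follow-up and adjuvant treatment, which came after the biopsy, differ with status by definition. In the paper's tables most NM dogs presented at a lower tumour stage than the M dogs. The NM biopsies were also older on average when RNA was isolated. The part of stage or of biopsy age in the status differences was not tested.

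Values are on a log2 scale, as the authors processed them, and the level of a probe set cannot be compared between genes. A mean below 2 was found for 74.2% of the 32391 Transcript clusters, and the means of ADAM17, ADAM9, ADAM15, PCSK7 and BACE1 lay in that range while those of ADAM10, FURIN and BACE2 lay above it. The table holds no detection p-values, so whether a dim cluster exceeded background was not examined here. The melanocyte list, of which 12 of 12 markers were measured, averaged 2.66 ± 0.78 in M OMMs against 2.55 ± 1.03 in NM OMMs (SD, n = 18 and 10). The first principal component of the whole table carried 34.9% of its variance and overlapped between M and NM OMMs, with scores of -0.19 ± 56.3 in M OMMs against 0.33 ± 48.3 in NM OMMs (mean and SD). Cross breed OMMs lay at its low end, with scores from -93.2 to -37.5 in these 7 tumours against -52.0 to 89.2 in the other 21.

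ADAM10 is the only member for which the study designed a quantitative PCR assay. Its oligonucleotides are shown because they fix which stretch of the canine transcript that assay reads. The probe and primers are printed 5′ to 3′ in lower case.
probe: ctctctgcccagcctctgatcct
forward primer: gaaggaatatgtaatggcatca
reverse primer: tgccgattacagtctgta
The probe has 23 bases, the forward primer 22 and the reverse primer 18. In the paper this assay gave nearly equal ADAM10 medians in M and NM OMMs, with no significant difference. Its values correlated over tumours with those of the array's exon probe set on which the assay was based. The paper gives no such correlation for the whole Transcript cluster read here. PCR values were not used here, and all levels below come from the array.

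ADAM10, Transcript cluster 14383236, encodes the main alpha-secretase and the protease that starts Notch processing after ligand binding. In M OMMs its level ran from 2.36 through a median of 3.49 to 4.71, against 2.35, 2.91 and 3.96 in NM OMMs. The ranges overlapped, but the upper end was held by M OMMs: 4 of 18 lay above the highest NM OMM, and 12 of 18 lay above the NM median. M OMMs averaged 3.43 ± 0.67, against 2.92 ± 0.45 in NM OMMs (SD), a difference of 0.51 with a standard error of 0.23, or 1.43 times on the linear scale. An M OMM exceeded an NM OMM in 72.2% of all M and NM pairs.

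The highest ADAM10 values belonged to M replicate 10, a Golden Retriever, at 4.71, and M replicate 9, a Cocker Spaniel, at 4.20. All 6 Cross breed M OMMs lay at or below 3.28. Without the 7 Cross breed tumours the difference between M and NM OMMs was 0.77.

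ADAM17, cluster 14306681, is the protease that releases tumour necrosis factor and several ligands of the epidermal growth factor receptor. Its level in M OMMs ran from 1.21 through 1.93 to 2.77, against 1.59, 1.80 and 2.16 in NM OMMs. The M range enclosed the NM range, with 3 M OMMs above it and 3 below it. The difference of 0.15 (SE 0.13) did not pass adjustment over all clusters (limma, adjusted p = 1).

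ADAM9 (cluster 14302506) and ADAM15 (cluster 14435257) encode further disintegrin metalloproteinases of the cell surface. ADAM9 ran from 1.07 through 1.39 to 2.10 in M OMMs and from 1.26 through 1.53 to 2.55 in NM OMMs. ADAM15 ran from 1.45 through 1.76 to 2.12 in M OMMs and from 1.44 through 1.90 to 2.27 in NM OMMs. Both genes had their 2 highest values in NM OMMs, and their groups otherwise overlapped. The differences, M minus NM, were -0.17 (SE 0.13) for ADAM9 and -0.12 (SE 0.09) for ADAM15, with a limma adjusted p of 1 for each. A further cluster annotated to both DCST1 and ADAM15, which are neighbours in the RefSeq annotation, was not read for ADAM15, since its probes cannot be given to either gene.

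FURIN, cluster 14377895, encodes the ubiquitous convertase of the trans-Golgi network, which removes the prodomains of ADAM10 and ADAM17. M OMMs had levels from 2.29 through 2.80 to 3.78, against 1.96, 2.43 and 2.95 in NM OMMs. The groups overlapped, yet 16 of 18 M OMMs lay above the NM median and 5 lay above every NM OMM. M OMMs averaged 2.90 ± 0.41, against 2.47 ± 0.27 in NM OMMs (SD), a difference of 0.43 with a standard error of 0.14, or 1.34 times on the linear scale. An M OMM was the higher in 81.1% of pairs. The 2 highest tumours were M replicates 15 and 8, both Golden Retrievers, at 3.78 and 3.70.

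PCSK7, cluster 14409348, encodes PC7, a membrane-bound convertase with some of the same targets as furin. Its level ran from 1.47 through 1.95 to 2.50 in M OMMs and from 1.38 through 1.71 to 2.24 in NM OMMs. A single M OMM exceeded all NM OMMs, and the difference was 0.14 (SE 0.10, limma adjusted p = 1).

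BACE1, cluster 14409337, is the beta-secretase of the amyloid precursor protein, and in the RefSeq annotation it is parted from PCSK7 by RNF214 alone. It ran from 1.45 through 1.73 to 2.85 in M OMMs and from 1.42 through 1.85 to 2.36 in NM OMMs. The 2.85 was M replicate 16, a Bullmastiff, and the other M OMMs lay within the NM range. BACE2, cluster 14384977, ran from 2.01 through 2.58 to 5.37 in M OMMs and from 1.24 through 2.29 to 5.66 in NM OMMs. Its spread was wide in both groups, with an SD of 0.90 in M OMMs against 1.38 in NM OMMs. The differences, M minus NM, were -0.06 (SE 0.12) for BACE1 and 0.06 (SE 0.41) for BACE2, with a limma adjusted p of 1 for each.

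Of the 6 members whose status difference was tested, 0 of 6 passed, as did 0% of all clusters. None of the 6 had an unadjusted p under 0.05, a level that 825 clusters reached, 2.55% of those tested. Over all clusters, 0 also passed under the methods' t-test with Benjamini-Hochberg adjustment. The paper instead adjusted that test by permutation, over clusters filtered for detection and unique hybridisation. It reported clusters that passed, ADAM10 among them.

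**Figure D1:**
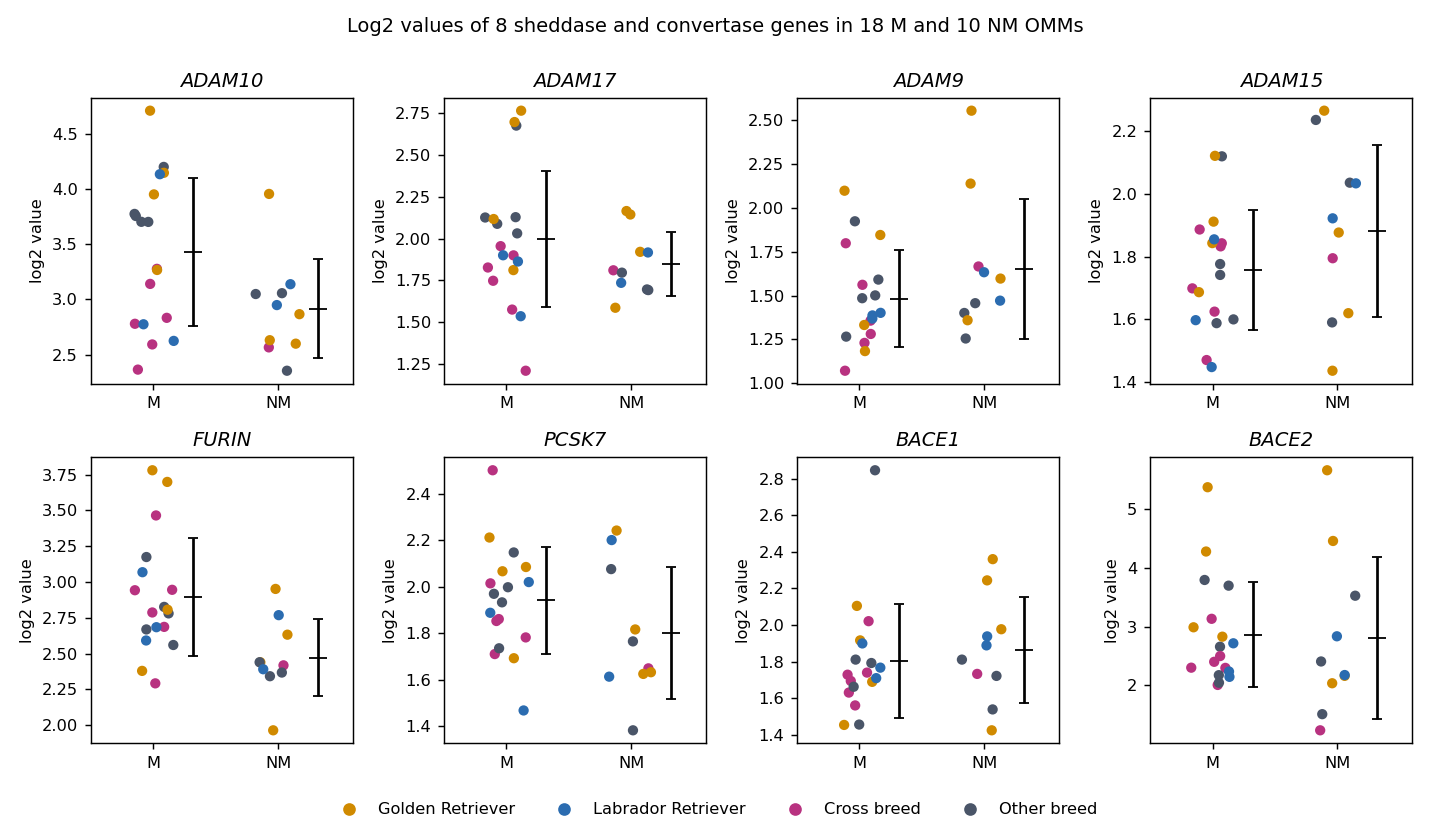
Log2 values (vertical axes) of the 8 genes in each of 18 M and 10 NM OMMs, coloured by breed class, with the group mean and SD as a bar to the right of the points. ADAM10 and FURIN have their highest values among M OMMs, at 4.71 and 3.78, while BACE2 spans most of its range in both groups.

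The status difference of ADAM10 was not the same size in each breed class. Among Golden Retrievers ADAM10 averaged 4.02 ± 0.60 in 4 M OMMs and 3.01 ± 0.64 in 4 NM OMMs (SD), a difference of 1.01. In the 8 dogs of other breeds the 5 M OMMs lay between 3.70 and 4.20 and the 3 NM OMMs between 2.35 and 3.06, with no overlap and a difference again of 1.01. The differences were 0.13 in Labrador Retrievers (3 M and 2 NM) and 0.27 in Cross breed dogs (6 M and 1 NM). FURIN was higher in M OMMs in each class, by 0.67 in Golden Retrievers, 0.20 in Labrador Retrievers, 0.44 in Cross breed dogs and 0.42 in other breeds. In the other breeds its M OMMs lay between 2.56 and 3.17 and its NM OMMs between 2.34 and 2.44. No breed of this class had both M and NM OMMs, so breed and status cannot be told apart in it. Scores on the first component also largely split by status there, from 11.1 to 82.6 in M OMMs and from -52.0 to 16.4 in NM OMMs. The part of breed or of the component in these differences was not tested.

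In those 8 dogs of other breeds, 3 members had every M OMM above every NM OMM, ADAM10, FURIN and ADAM17, and 2.43% of all clusters did. ADAM10 and FURIN were chosen for this contrast, so their share in that count carries no weight. ADAM17 ran from 2.03 to 2.68 in the M OMMs of this class, against 1.69 to 1.80 in its NM OMMs, which came from different breeds. In Labrador Retrievers ADAM9 and ADAM15 had every M OMM below every NM OMM, as 11.6% of all clusters had in that small class.

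Whether the status difference depended on Golden Retriever breed was tested as an interaction over all clusters. It ran from -0.26 for ADAM9 to 0.60 for ADAM10 (SE 0.47), and 0 of 8 members passed adjustment, as did 0% of all clusters. None of the 8 had an unadjusted p under 0.05, which 3.07% of clusters had.

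Breed class itself was compared next, with status in the model. Golden Retriever OMMs had the higher mean for 8 of 8 members, while all clusters had a median difference of -0.07, and 4 of the 8 (ADAM10, ADAM15, PCSK7 and BACE1) had the lower mean with the first component as a covariate. No member passed adjustment, against 2.54% of clusters. At an unadjusted p under 0.05, 4 members were higher, BACE2, ADAM17, ADAM9 and ADAM10, against 11.5% of clusters in that direction.

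BACE2 showed the widest gap. In Golden Retrievers it ran from 2.04 through 3.63 to 5.66, against 1.24, 2.35 and 3.79 in the other 20 OMMs. The 4 highest BACE2 values of the series were all in Golden Retrievers, NM replicates 3 and 2 at 5.66 and 4.45 and M replicates 8 and 10 at 5.37 and 4.27, while the other 4 Golden Retrievers lay within the range of the other breeds. The difference was 1.29 (SE 0.38, limma adjusted p = 0.0552). It passed with array weights (adjusted p = 0.00922), with dim clusters left out (0.0365) and with a stricter filter on dim clusters (0.0268), and without the Cross breed OMMs it was 1.14 with an adjusted p of 0.291.

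The other differences of Golden Retrievers were smaller than 1 on the log2 scale. ADAM10 ran from 2.60 through 3.61 to 4.71 in Golden Retrievers and from 2.35 through 3.05 to 4.20 in the other OMMs, a difference of 0.50 (SE 0.23, adjusted p = 0.157). ADAM17 differed by 0.33 (SE 0.13, adjusted p = 0.106) and ADAM9 by 0.28 (SE 0.13, adjusted p = 0.139). The convertase genes differed by 0.21 (FURIN, adjusted p = 0.329) and 0.07 (PCSK7, adjusted p = 0.650), BACE1 by 0.09 (adjusted p = 0.643) and ADAM15 by 0.04 (adjusted p = 0.810).

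Golden Retriever OMMs also stood apart on measures outside the 8 genes. Their score on the first component averaged 44.3 ± 47.0, against -17.7 ± 44.3 in the other OMMs (SD, n = 8 and 20). Of the melanocyte markers 11 of 12 were higher in them, with a list mean of 3.12 ± 1.07 (1.85 to 4.46) in Golden Retrievers and 2.41 ± 0.69 (1.69 to 4.39) in the others. Of the epithelium markers 9 of 11 were higher, with a list mean of 2.96 ± 0.97 (1.67 to 4.33) in Golden Retrievers and 2.15 ± 0.47 (1.55 to 3.37) in the others. Fibroblast markers were higher in Golden Retrievers for 10 of 10, with a list mean of 3.49 ± 0.81 (2.47 to 4.89) in Golden Retrievers and 2.91 ± 0.54 (2.32 to 4.05) in the others. Of the neutrophil markers 4 of 6 were higher, with a list mean of 4.14 ± 1.20 (2.25 to 5.16) in Golden Retrievers and 3.30 ± 1.07 (1.50 to 4.85) in the others. Endothelial markers were higher for 7 of 9, macrophage markers for 5 of 7 and T and NK cell markers for 4 of 10, while muscle markers were lower for 7 of 7 and B and plasma cell markers for 6 of 7. With the first component as a covariate the BACE2 difference was 0.49 and the ADAM10 difference -0.15. The paper's quality metrics list a percentage of present probe sets per array. Among the arrays kept, most of the highest percentages belonged to Golden Retrievers, while the remaining Golden Retrievers had far lower ones. If replicate numbers follow the paper's order of dogs, the 4 tumours with the highest BACE2 values were among those with high percentages. The part of tissue make-up or of RNA quality in these differences was not tested.

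Cross breed OMMs lay at the low end for ADAM10. ADAM10 ran from 2.36 through 2.78 to 3.28 in the 7 Cross breed OMMs, against 2.35, 3.27 and 4.71 in the other 21. Of the other 21 OMMs, 10 lay above every Cross breed OMM. With status in the model ADAM10 was lower in Cross breed OMMs by a difference of -0.80 (SE 0.22, limma adjusted p = 0.0143), and this held when any single tumour was left out, with adjusted p-values up to 0.0420. ADAM10 was the only member of 8 to pass, where 19.4% of all clusters passed and 5.15% passed as lower.

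ADAM17 ran from 1.21 through 1.81 to 1.95 in Cross breed OMMs and from 1.53 through 1.92 to 2.77 in the others. Its difference was -0.37 (SE 0.14, adjusted p = 0.0590), and it passed with array weights (0.0440), quantile normalisation (0.0442), median centring (0.0462) and with dim clusters left out (0.0491). BACE2 ran from 1.24 through 2.30 to 3.13 in Cross breed OMMs and from 1.51 through 2.72 to 5.66 in the others, a difference of -0.84 (SE 0.45, adjusted p = 0.176). The remaining 5 members differed by -0.12 to -0.02, and FURIN and PCSK7 had slightly higher plain means in Cross breed OMMs (FURIN 2.79 against 2.73 in the others, PCSK7 1.91 against 1.88 in the others) before status was taken into account.

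The first component again moved with the group. Its score was -58.1 ± 20.4 in Cross breed OMMs and 19.4 ± 45.2 in the others (SD, n = 7 and 21). With that score as a covariate the ADAM10 difference was -0.05 (adjusted p = 0.975) and 3 clusters of the whole table passed. Fibroblast markers were lower in Cross breed OMMs for 10 of 10, with a list mean of 2.44 ± 0.14 (2.32 to 2.68) in Cross breed OMMs and 3.28 ± 0.64 (2.38 to 4.89) in the others. Of the neutrophil markers 3 of 6 were lower, with a list mean of 2.53 ± 0.59 (1.79 to 3.51) in Cross breed OMMs and 3.87 ± 1.10 (1.50 to 5.16) in the others. Of the melanocyte markers 11 of 12 were lower, with a list mean of 2.27 ± 0.33 (1.83 to 2.83) in Cross breed OMMs and 2.73 ± 0.96 (1.69 to 4.46) in the others. The only melanocyte marker to pass adjustment was SOX10, named after its values were seen, and it was higher in Cross breed OMMs. Over all clusters 11694 of 32391 were lower, and 14.2% passed as higher. Of the epithelium markers 8 of 11 were lower, with a list mean of 1.91 ± 0.15 (1.72 to 2.13) in Cross breed OMMs and 2.54 ± 0.78 (1.55 to 4.33) in the others. Macrophage markers were lower for 6 of 7, endothelial markers for 7 of 9, T and NK cell markers for 4 of 10, muscle markers for 3 of 7 and B and plasma cell markers for 1 of 7. In the paper's quality metrics the lowest percentages of present probe sets, among the arrays kept, belonged to Cross breed dogs. These metrics were not used here. The part of these cells or of RNA quality in the ADAM10 difference was not tested.

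**Figure D2:**
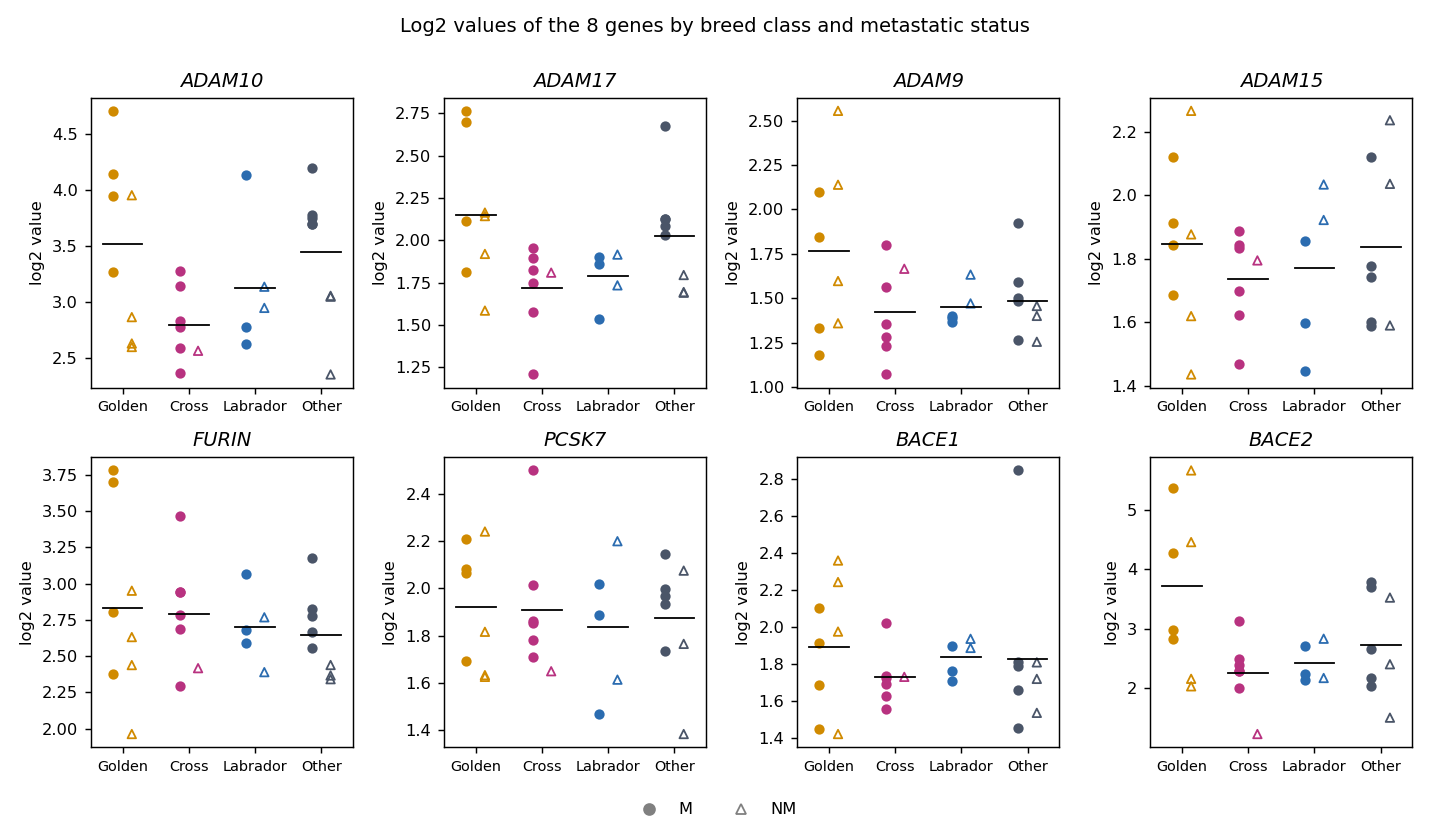
Log2 values (vertical axes) of the 8 genes in the 28 OMMs by breed class, with M OMMs as filled circles, NM OMMs as open triangles and the class mean as a line. ADAM10 in Cross breed OMMs stays at or below 3.28, and the 4 highest BACE2 values belong to Golden Retrievers.

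**Figure D3:**
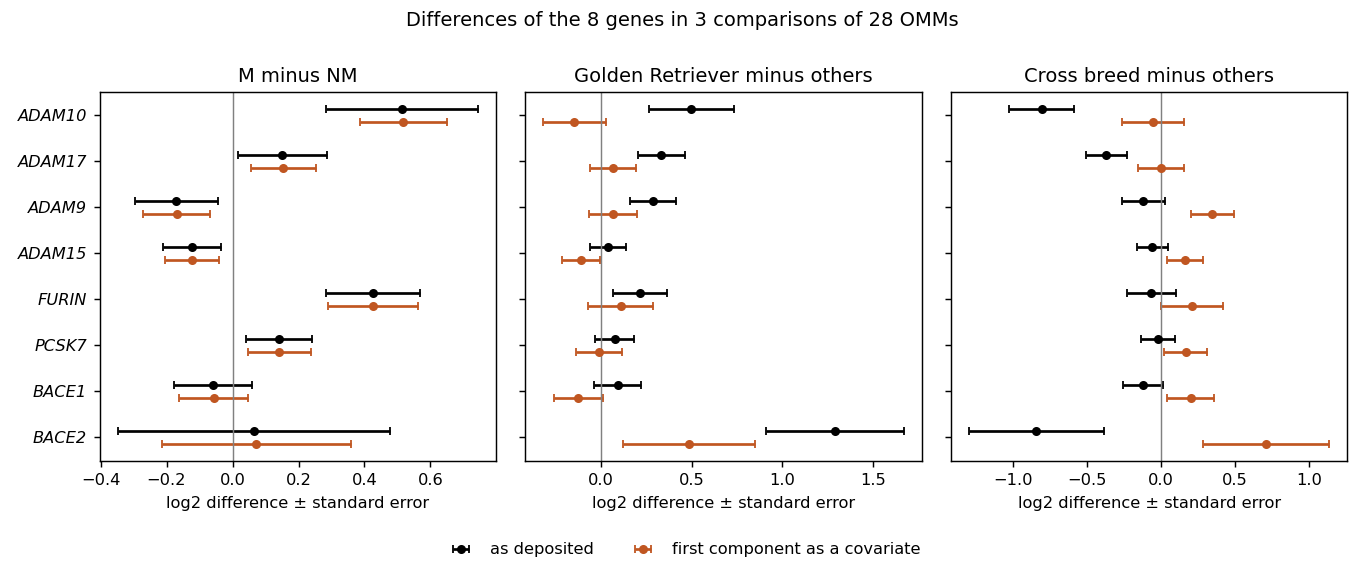
Log2 differences (horizontal axes) of the 8 genes with their standard errors, from limma, for M minus NM, Golden Retriever minus all other OMMs and Cross breed minus all other OMMs. Black points use the deposited values and orange points add the first principal component as a covariate. With it ADAM10 has a status difference of 0.52 and a Cross breed difference of -0.05. Mean scores on the component hardly differ by status (-0.19 in M OMMs and 0.33 in NM OMMs), so this covariate could change the status difference little.

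The score on the first component was set against each member over the 28 tumours, since it differed between the breed groups. That score was computed from all clusters, the members among them, and carried 34.9% of the variance, so many clusters must relate to it. The share of all clusters that do was not computed, so the p-values with the score do not set the members apart. ADAM10 followed it with Pearson's r = 0.76 and Spearman's rho = 0.73 (permutation test, adjusted p = 0.000160 for each, over 16 relations), and with r = 0.71 without the 2 tumours farthest from the median score. BACE2 (r = 0.73, rho = 0.55) and ADAM17 (r = 0.68, rho = 0.73) followed it as well, with permutation adjusted p-values of 0.000160 and 0.000240 for r. FURIN and PCSK7 were the least related to it, with r = 0.27 for each and a permutation adjusted p of 0.183. The same relations were computed with the mean of the melanocyte list, and BACE2 had r = 0.74 and rho = 0.78 with it (permutation adjusted p = 0.000213 for r and 0.000160 for rho, r = 0.81 without the 2 farthest tumours), while FURIN had r = 0.20 (permutation adjusted p = 0.319).

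**Figure D4:**
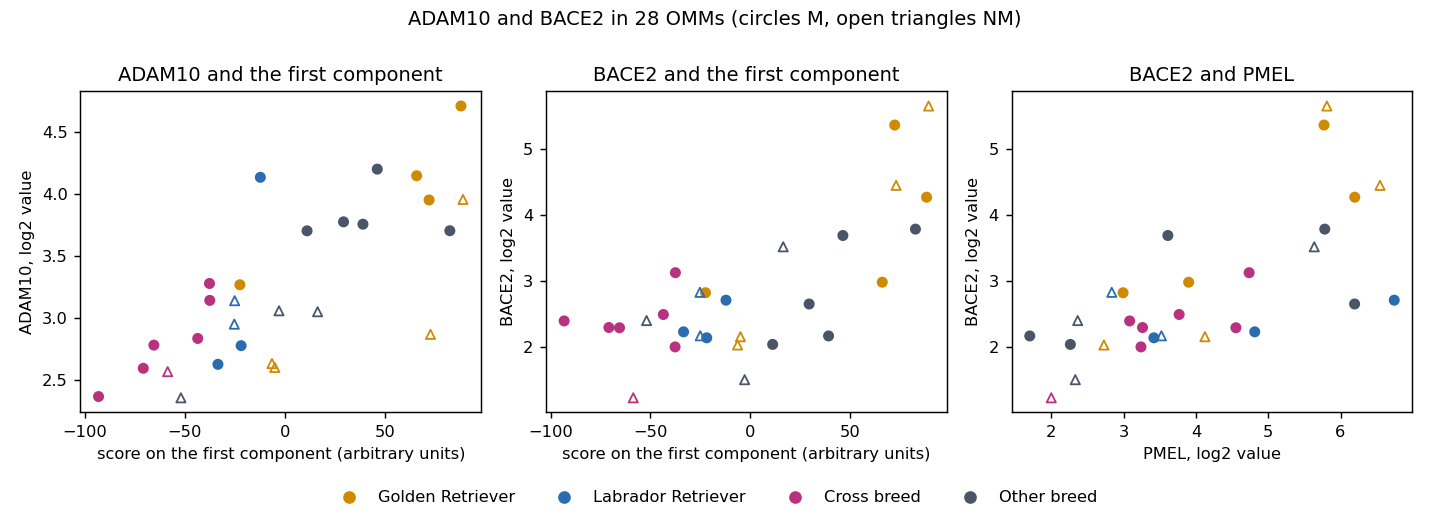
ADAM10 and BACE2 (log2 values) against the tumour's score on the first principal component (arbitrary units), and BACE2 against PMEL (log2 values), with M OMMs as filled circles and NM OMMs as open triangles, coloured by breed class. ADAM10 rises along the component with r = 0.76, Cross breed OMMs lie at its low end, and BACE2 rises with PMEL with r = 0.69.

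Pairs of members were then compared over the 28 tumours. All 28 pairs had a Pearson's r above 0, with a median of 0.35. After permutation and adjustment over 34 relations (28 pairs of members and 6 pairs with a partner gene), 4 pairs passed. How often other pairs of clusters reach such an r on these arrays was not computed, so neither count sets the members apart. ADAM10 and ADAM17 had r = 0.69 and rho = 0.65 (permutation adjusted p = 0.000850 and 0.00527, r = 0.61 without the 2 farthest tumours). ADAM10 and BACE2 had r = 0.54 and rho = 0.51 (permutation adjusted p = 0.0169 and 0.0445, r = 0.47 without the 2), and ADAM15 and BACE2 had r = 0.57 and rho = 0.58 (permutation adjusted p = 0.0131 and 0.0185, r = 0.44 without the 2). ADAM9 and BACE2 had the highest r, 0.70 (permutation adjusted p = 0.00125), but a rho of 0.25 (permutation adjusted p = 0.272) and r = 0.48 without the 2 farthest tumours, so the relation leaned on a few tumours with high values of both.

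The lowest r were those of ADAM15 with FURIN at 0.00, ADAM9 with FURIN at 0.14 and ADAM10 with BACE1 at 0.18. ADAM10 and its convertase FURIN had r = 0.42 and rho = 0.43, which did not pass (permutation adjusted p = 0.0784 and 0.0776). This r passed without the Cross breed OMMs (0.54, permutation adjusted p = 0.0447) and after median centring (0.48, permutation adjusted p = 0.0233). With the first component removed from every gene, 20 of 28 pairs stayed above 0, the median r was 0.16 and 0 pairs passed. ADAM10 with FURIN had r = 0.34 after that removal and ADAM10 with BACE2 -0.03.

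**Figure D5:**
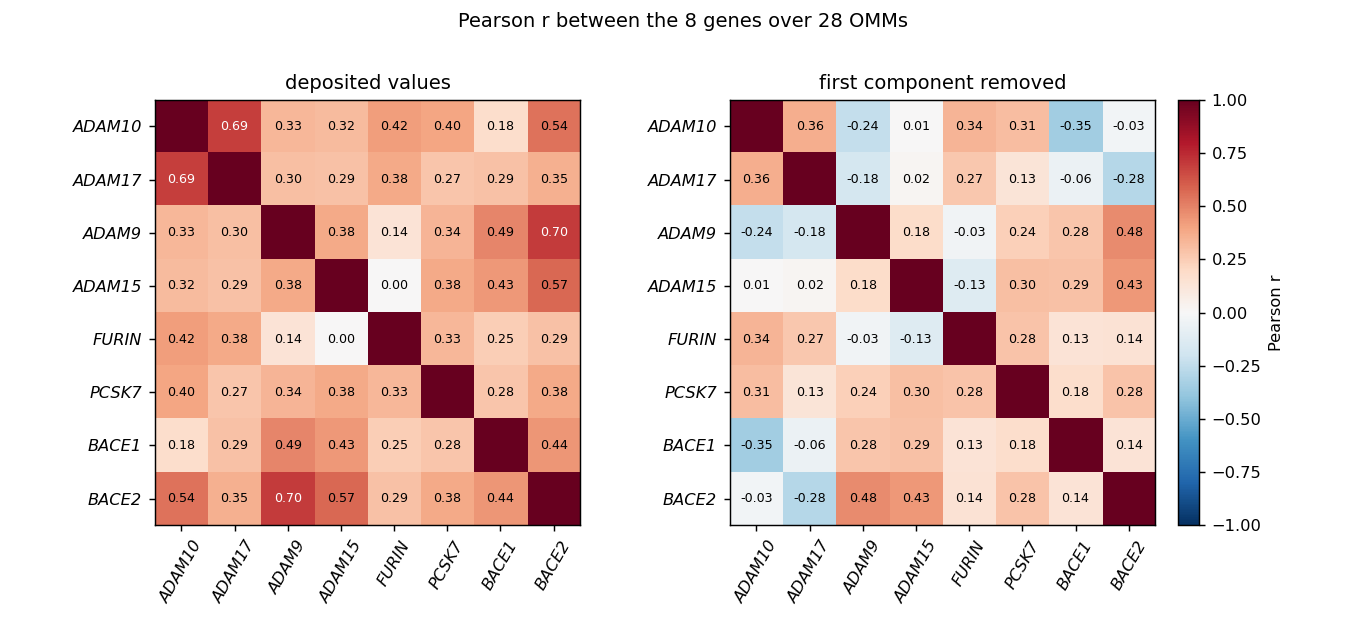
Pearson's r between each pair of the 8 genes over 28 OMMs, on deposited values (left) and with the first principal component removed from each gene (right), on a colour scale from -1 to 1. The highest r on the left are those of ADAM9 with BACE2 (0.70) and ADAM10 with ADAM17 (0.69), and on the right the pair of ADAM10 and BACE2 is at -0.03.

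Of the 6 partner pairs, BACE2 and PMEL, a protease and its melanosomal substrate, had r = 0.69 and rho = 0.70 (permutation adjusted p = 0.000850 and 0.00306), and r = 0.69 without the 2 farthest tumours. BACE1 and APP, the amyloid precursor protein, had r = 0.52 and rho = 0.42 (permutation adjusted p = 0.0175 and 0.0776), with r = 0.28 without the 2, so it rested on those tumours. With the first component removed 0 of the 6 partner pairs passed, and r was 0.54 for BACE2 and PMEL and 0.24 for BACE1 and APP. ADAM17 and RHBDF2, which encodes iRhom2, the escort that carries ADAM17 to the cell surface, had r = -0.34 and rho = -0.50 (permutation adjusted p = 0.128 and 0.0445), and r turned to 0.18 with the first component removed. ADAM10 with TSPAN15, a tetraspanin that binds it, had r = 0.44 (permutation adjusted p = 0.0723), and FURIN had r = 0.37 with MMP14 and -0.17 with TGFB1, both of which it activates (permutation adjusted p = 0.106 and 0.407).

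The genes most like a member were taken from 8711 others with a single symbol and a mean above the median, by Pearson's r over 28 tumours. For ADAM10 they were PPP2CB (0.85), TOX4 (0.85), RB1CC1 (0.84), TCF12 (0.83) and DOCK1 (0.80). For BACE2 they were ART3 (0.90), MITF (0.89), LONP2 (0.88), LGALS8 (0.87) and ATP5MC3 (0.87), of which MITF encodes the master transcription factor of melanocytes. FURIN had no such close companions, with CADM1, SEMA4C and PLCB1 at 0.65 and WWTR1 and ST6GAL1 at 0.64. All these genes share the same arrays and the first component, and the values are a description.

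Other genes of the pathway were counted by list. Of 18 other metalloproteinases, 7 other convertase genes, 5 gamma-secretase subunits, 11 partners, 9 inhibitors, 31 ADAM substrates and 24 substrates of convertases or BACE proteins, 0 passed between M and NM OMMs. The median differences of these lists ran from -0.01 to 0.08, beside 0.00 over all clusters. At an unadjusted p under 0.05, NCSTN, a gamma-secretase subunit, averaged 2.08 ± 0.25 in M OMMs and 1.82 ± 0.18 in NM OMMs, and TIMP1, a metalloproteinase inhibitor, averaged 3.29 ± 0.52 in M OMMs and 2.79 ± 0.53 in NM OMMs (SD, n = 18 and 10). EREG, an ADAM17 substrate, had an M minus NM difference of 0.19 and CD163, a macrophage receptor shed by ADAM17, one of -0.16, and both are named after their values were seen.

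Bright genes of the lists did not pass by status either. MMP14, a membrane matrix metalloproteinase, averaged 2.72 in M OMMs and 2.69 in NM OMMs. CD44, an ADAM10 substrate, averaged 4.06 in M OMMs and 3.96 in NM OMMs, and PRNP, the prion protein gene, 3.42 in M OMMs and 3.59 in NM OMMs. APP averaged 5.81 in M OMMs against 5.44 in NM OMMs (difference 0.37, SE 0.37) and PMEL 4.22 in M OMMs against 3.79 in NM OMMs (difference 0.43, SE 0.58), with a limma adjusted p of 1 for each.

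In Golden Retrievers 0 genes of these 7 lists passed. In the Cross breed comparison 14.2% of all clusters passed as higher and 5.15% as lower. In Cross breed OMMs the substrates that passed included several bright ones, with APP at 4.75 in Cross breed OMMs and 5.98 in the others (difference -1.44, SE 0.33, limma adjusted p = 0.00569), APLP2 at 2.45 in Cross breed OMMs and 3.81 in the others (difference -1.49, SE 0.31, adjusted p = 0.00303) and CD44 at 3.21 in Cross breed OMMs and 4.30 in the others (difference -1.20, SE 0.36, adjusted p = 0.0224). Of the 24 convertase and BACE substrates 2 were higher (ITGA3 and CNTN2) and 4 lower (ITGA6, ITGAV, APP and APLP2), and of the 31 ADAM substrates 1 was higher (EGF) and 2 lower (NOTCH2 and CD44). Apart from APP, APLP2 and CD44 these are named after their values were seen. Of the 18 other metalloproteinases 5 were higher and 1 lower, the lower one being MMP14 at 2.17 in Cross breed OMMs and 2.89 in the others (difference -0.79, SE 0.28, adjusted p = 0.0456). The 5 that were higher, named after their values were seen, were ADAM8, ADAM21, ADAMDEC1, MMP15 and MMP25. Among convertase genes PCSK1N, which encodes the convertase inhibitor proSAAS, was higher at 3.74 in Cross breed OMMs and 2.99 in the others (difference 0.85, SE 0.28, adjusted p = 0.0370), and among gamma-secretase subunits APH1A was lower at 2.44 in Cross breed OMMs and 2.90 in the others (difference -0.47, SE 0.15, adjusted p = 0.0337). RHBDF2 was higher by 0.23 in Cross breed OMMs (adjusted p = 0.0440), while TSPAN17, named after its values were seen, was lower at -0.77 (adjusted p = 0.0274), and of the 9 inhibitors TIMP4, named likewise, was higher by 0.25 (adjusted p = 0.0456).

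Tumours that were high for a member were often high for several. NM replicate 3, a Golden Retriever with the highest first component score of the series (89.2), held the highest value of 3 members, ADAM9, ADAM15 and BACE2, and was above the median for 8 of 8. M replicate 10, also a Golden Retriever (score 88.2), held the highest ADAM10 and ADAM17 and was likewise above the median for 8 of 8. At the other end NM replicate 6, a Golden Retriever with a score of -6.4, held the lowest FURIN and BACE1 and was above the median for 1 of 8, and NM replicate 7, an Irish Terrier, and M replicate 2, a Labrador Retriever, were above the median for 0 of 8.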

How the data were processed

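RNA from 28 OMM biopsies had been hybridised to canine gene arrays. The authors processed the scans with Affymetrix Expression Console 1.3 by the RMA algorithm, excluding arrays with outlying quality metrics, and deposited quantile-normalised log2 values for 32391 Transcript clusters. Only these processed values were used, so background correction could not be varied. The array's genome build and the strips it was run on are not given in the sources used here, and no coordinates are printed. Arrays hold no counts, so the number of tumours limits the precision.

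The members and the gene lists were chosen with earlier results of these data known. Symbols came from the array annotation, of which 16878 clusters carried 1 symbol and 289 several. Gene neighbours came from a RefSeq table. All clusters were fitted with limma 3.58.1 in R 4.3.3 (M minus NM without covariates, breed contrasts with status as a covariate, and the interaction), with Benjamini-Hochberg adjustment at 0.05, and tested on simulated data. Correlations used Python 3.11.15 with NumPy 2.4.6 and SciPy 1.17.1, and two-sided permutation tests with 100000 resamples. Levels of a marker list are means over its measured genes.

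By rule the text names the 8 members, 6 partner genes, the 3 genes of each list with the highest means where they bear on a result, and the 5 genes most correlated with ADAM10, FURIN and BACE2. Tumours of 1 dog each are the replicates. The alternatives were trend and robust options, array weights, quantile normalisation, median centring, filters on dim clusters, the first component as a covariate, the methods' t-test, breed and replicate blocks, leaving out the Cross breed OMMs and leaving out each tumour. Each member had 1 cluster, so other choices of cluster gave no other value.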

Additional observations from a re-analysis of the deposited data

Results flagged for a closer look

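Of 56 groups of 4 to 10 tumours examined for the 8 members, 3 had an end value that stood far from the rest by Dixon's criterion, and chance gives about 1 in 20. ADAM10 in NM OMMs had its highest value, 3.96, in replicate 3, a Golden Retriever, while the other 9 NM OMMs lay between 2.35 and 3.14. Without it the M minus NM difference of ADAM10 was 0.63. PCSK7 in Cross breed OMMs had its highest value, 2.50, in M replicate 4, with the other 6 between 1.65 and 2.01. BACE1 in Cross breed OMMs had its highest value, 2.02, in M replicate 13, with the other 6 between 1.56 and 1.74. The cause was not tested.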

How the results depend on the processing

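The status differences of ADAM10 and FURIN stayed above 0 under every alternative run, at 0.44 to 0.63 for ADAM10 and 0.37 to 0.48 for FURIN with any tumour left out. Both genes were chosen for this direction in the same data, so their signs are a description and no test. The 10 numbers shared by M and NM OMMs did not pair tumours, since 4 of 10 pairs had deviations correlated above 0.1. With the replicate block the differences were 0.68 for ADAM10 and 0.40 for FURIN and 0 clusters passed. The count between M and NM OMMs was 0 throughout, and 1 cluster passed the interaction without NM replicate 6 (range 0 to 1).

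The Golden Retriever count, 824 of 32391, was 241 with trend and robust options, 7182 with array weights and 104 after quantile normalisation. It was 2214 of 16195 with dim clusters left out and 1922 of 8098 with a stricter such filter, both larger shares. With the first component it was 0, and without the Cross breed OMMs also 0. It ran from 2 without M replicate 8 to 4908 without M replicate 14, and stayed within 1.5 times for M replicates 6 and 18 and NM replicate 7 only. BACE2 in Golden Retrievers (1.02 to 1.49 with any tumour left out) was 1.46 with array weights and 1.29 in both filters, and passed without M replicates 1, 9, 14 or 16 or NM replicates 1, 6 or 9. ADAM17 and ADAM9 passed there without M replicate 14 (adjusted p = 0.0451 and 0.0489).

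The Cross breed count was 6281 of 32391 clusters, and 3697 of 8098 with the stricter filter on dim clusters, a larger share. It was 3 with the first component, and 3771 (without M replicate 17) to 7695 otherwise. ADAM17 passed there without M replicates 2, 7 or 14 or NM replicate 10. Signs turned with the first component for Golden Retrievers (ADAM10 -0.15, ADAM15 -0.11, PCSK7 -0.014, BACE1 -0.13) and Cross breed (ADAM17 0.0040, ADAM9 0.35, ADAM15 0.16, FURIN 0.21, PCSK7 0.17, BACE1 0.20, BACE2 0.71), where ADAM10 was -0.053. FURIN was 0.021 in Cross breed OMMs after quantile normalisation and PCSK7 0.0044 with array weights. The BACE2 interaction was 0.028 after quantile normalisation, 0.0050 after median centring and 0.10 without the Cross breed OMMs.

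With a tumour left out, BACE2 ran from -0.11 to 0.38 (M minus NM) and -0.52 to 0.68 (interaction), ADAM15 from -0.019 to 0.10 (Golden Retrievers), FURIN from -0.16 to 0.025 and PCSK7 from -0.11 to 0.020 (Cross breed), and the PCSK7 interaction from -0.038 to 0.18. Correlated pairs numbered 0 after the first component, 8 after status, 20 after median centring and 5 without the Cross breed OMMs, against 4, and ADAM10 with BACE2 had r = -0.028 after the first component. Without the Cross breed OMMs ADAM10 with BACE2 was lost (permutation adjusted p = 0.0569), while FURIN passed with ADAM10 (0.0447) and ADAM17 (0.0412). The causes were not tested.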
